A study of Mus musculus with 45 samples.

Results

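Integrins are the cell's receptors for extracellular matrix, and laminins are the main glycoproteins of the basement membrane that surrounds each heart muscle cell and underlies the lining of each vessel. The genes described here are the integrin chains and laminin chains of the mouse, 37 of the 23284 genes listed in each expression file. They were chosen by symbol, with earlier results of these data known. Every gene named Itga or Itgb followed by a number or a letter was taken. So was every gene named Lama, Lamb or Lamc followed by a digit. They comprise 18 integrin α chains, 8 integrin β chains, 5 laminin α chains, 3 laminin β chains and 3 laminin γ chains.

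An integrin is a pair of 1 α and 1 β chain, and the α chain largely decides which matrix protein is bound. A laminin is a trimer of 1 α, 1 β and 1 γ chain. The trimer joins a network with type IV collagen, nidogen and perlecan, and its α chain is the part that integrins and dystroglycan hold. Integrin β1, paired with different α chains, is the main integrin β chain of cardiomyocytes, and laminin α2 is the muscle laminin whose loss causes a congenital muscular dystrophy.

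The RNA came from mouse heart and was sequenced after poly(A) selection. The libraries were banding (1 library, a surgical narrowing of a great vessel that raises the load on the heart), sham (1 library, the operated control), adult (2 libraries), E12.5 labelled Gata4 KO (1 library) and E12.5 (1 library, mid-gestation embryos). Banding and sham carry no age label, adult no age in weeks, and none of the 6 a strain label. The protocol shared by the series names the alleles Gata4fbio, Rosa26BirA, cTNTcre and Gata4flox without saying which RNA libraries carry them. A Cre driven by the cardiac troponin T promoter acts in cardiomyocytes and leaves the other heart cells alone. Each library was made from 2 µg of pooled RNA, so a library is a pool, and no label gives the 2 adult libraries separate animals. The p-values rest on the spread between that pair alone, and that spread may be technical.

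Levels are log2(FPKM + 1), where FPKM is fragments per kilobase of transcript, scaled to the mapped reads, so levels of different genes are compared per length. Depth ran from 12086929 to 21056784 mapped reads per library. The share of mapped reads on listed genes was 58.0% in banding and 55.6% in sham, against 83.6% and 83.9% in adult and 75.9% in E12.5, which bears on levels set across these groups. The library labelled Gata4 KO did not hold less Gata4 than E12.5, at 6.13 against 5.93 (4159 against 4290 reads, FPKM ratio 1.15, 95% counting interval 1.10 to 1.20), so it is named here by its label. With 1 value for the whole gene, this level cannot show whether a part of Gata4 was removed. The 8 cardiomyocyte markers summed to 24700 FPKM or more in every library, with none at 0. In such bulk samples, fewer cells of a type and less RNA per cell cannot be told apart.

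Of the 37 members, 27 reached 1 FPKM in at least 1 library, namely 12 integrin α chains, 6 integrin β chains, 4 laminin α chains, 3 laminin β chains and 2 laminin γ chains. Itgb1, the integrin β1 chain, was the most abundant integrin in every library, at 5.58 in banding, 5.30 in sham, 6.78 and 6.89 in adult, 7.48 in the library labelled Gata4 KO and 7.40 in E12.5. It made up 70.0% of the summed FPKM of the 8 integrin β chains in banding, 70.7% in sham, 85.1% and 86.2% in adult, 85.1% in the library labelled Gata4 KO and 88.8% in E12.5. Lamc1, the laminin γ1 chain found in most laminins, made up 91.2% to 96.1% of the summed FPKM of the laminin γ chains. These 2 chains led their classes at both ages and in the operated hearts, whereas the leading integrin α and laminin β chain differed between adult and E12.5. The 10 members under 1 FPKM in every library were Itga10, Itga11, Itgad, Itgae, Itgal, Itgax, Itgb4, Itgb7, Lama1 and Lamc3, with levels from 0 to 0.99. A further 4 measured members, Itga4, Itgam, Itgb2 and Lama3, lay under 1 FPKM in adult and in E12.5, at 0.53 and 0.55, 0.64 and 0.86, 0.44 and 0.65, and 0.86 and 0.79 in the adult libraries, against 0.60, 0.17, 0.38 and 0.14 in E12.5.

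**Figure D1:**
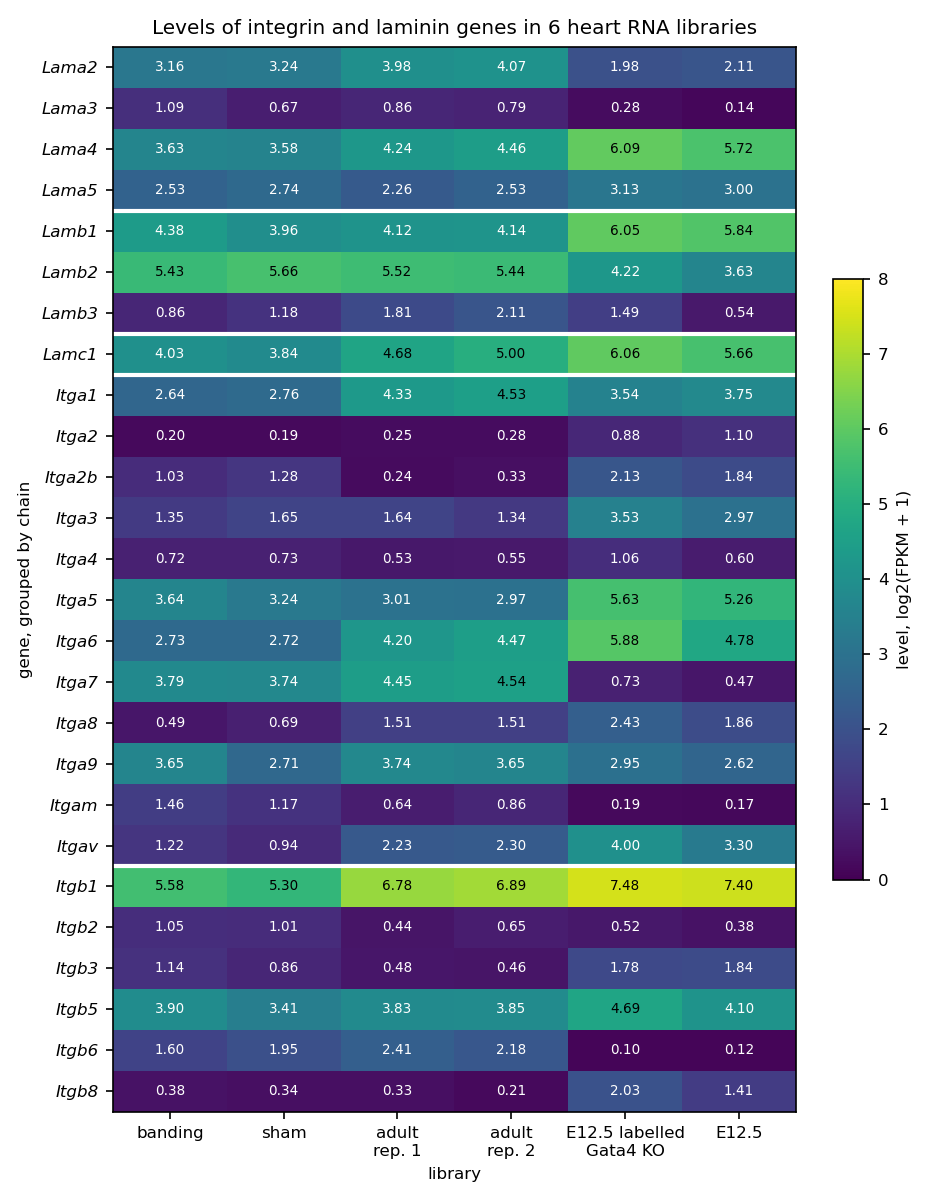
Level of 26 integrin and laminin chains with at least 1 FPKM in a library, as log2(FPKM + 1), in each of the 6 libraries (columns: banding, sham, adult replicates 1 and 2, E12.5 labelled Gata4 KO, E12.5). Itgb1 is the highest integrin in every column, and Itga7 is at 4.45 and 4.54 in adult against 0.47 in E12.5.

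The RefSeq sequences before the start of 4 chains that the comparison of ages turns on are shown first, Lamb2 and Lama2 as laminin chains that were higher in adult and Lamb1 and Itga5 as chains that were lower. Each is the 250 bases 5′ of the start, written 5′ to 3′ on the gene's own strand in build GRCm38.p6, at chr9:108479612-108479861 (+) for Lamb2, chr10:27616943-27617192 (-) for Lama2, chr12:31265043-31265292 (+) for Lamb1 and chr15:103366792-103367041 (-) for Itga5. Capitals mark the core GATA, read as TATC on the other strand, and the GC box GGGCGG, read as CCGCCC.
Lamb2: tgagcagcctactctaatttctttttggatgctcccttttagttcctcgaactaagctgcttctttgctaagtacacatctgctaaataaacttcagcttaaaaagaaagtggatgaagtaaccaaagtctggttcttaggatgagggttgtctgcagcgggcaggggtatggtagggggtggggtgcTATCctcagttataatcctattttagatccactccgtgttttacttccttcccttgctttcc
Lama2: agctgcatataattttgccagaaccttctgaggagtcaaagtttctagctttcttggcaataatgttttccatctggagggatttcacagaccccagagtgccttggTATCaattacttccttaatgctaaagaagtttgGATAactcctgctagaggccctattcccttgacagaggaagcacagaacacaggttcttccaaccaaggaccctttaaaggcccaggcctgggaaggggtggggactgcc
Lamb1: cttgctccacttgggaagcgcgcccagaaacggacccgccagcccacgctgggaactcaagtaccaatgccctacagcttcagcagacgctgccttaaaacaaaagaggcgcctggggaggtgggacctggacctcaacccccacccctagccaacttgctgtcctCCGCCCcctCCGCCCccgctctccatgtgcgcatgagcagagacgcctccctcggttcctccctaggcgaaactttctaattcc
Itga5: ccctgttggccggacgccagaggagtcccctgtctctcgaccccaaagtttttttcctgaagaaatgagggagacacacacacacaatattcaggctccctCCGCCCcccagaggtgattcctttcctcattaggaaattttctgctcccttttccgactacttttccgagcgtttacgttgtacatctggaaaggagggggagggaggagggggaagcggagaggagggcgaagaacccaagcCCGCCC

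The window of Lamb2 held 1 TATC, and that of Lama2 held 1 GATA and 1 TATC, with no GC box in either. The windows of Lamb1 and Itga5 held 2 CCGCCC each and no GATA core. G and C made up 43.6% of the Lamb2 window and 47.2% of the Lama2 window, against 62.0% for Lamb1 and 55.6% for Itga5, and the CG dinucleotide occurred 3 and 0 times against 14 and 11 times. Over all 32851 RefSeq windows of this length, 53.6% held the GATA core on either strand, 32.7% held the GC box, and the median was 52.4% G and C and 6 CG. Of the 23 members with a window, 9 held the GATA core and 8 the GC box, so both are common letters here and a match is a description only. The chains shown were picked after their values were seen. Itga3, which was also lower in adult, was among the members with the GATA core and among those with the GC box. A link between these letters and the direction of a difference was not tested.

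Adult heart was first set against the heart at E12.5, the comparison of ages. The laminin chains Lama2 and Lamb2 were higher in adult, as was the muscle laminin receptor chain Itga7, while the laminin chains Lamb1 and Lama4 and the fibronectin receptor chain Itga5 were lower. By limma with Benjamini-Hochberg adjustment, 7 of the 23 members tested rose and 11 fell, beside 23.4% of all 12658 genes tested that rose and 48.4% that fell. The remaining 5 did not pass the test, and 14 members lay under 1 FPKM in all 3 libraries and were not tested. The median difference over the tested members was -0.61, beside -0.51 over all genes.

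Among the laminin β chains, the order reversed. Lamb2, the laminin β2 chain of mature muscle and vessel basement membranes, stood at 5.52 and 5.44 in adult and 3.63 in E12.5, and rose by 1.85 (SE 0.08, limma adjusted p = 0.00445). Lamb1, the laminin β1 chain of embryonic basement membranes, stood at 4.12 and 4.14 in adult and 5.84 in E12.5, and fell by 1.71 (SE 0.07, adjusted p = 0.00431). Both adult libraries thus held more Lamb2 than Lamb1, and E12.5 held more Lamb1 than Lamb2. Lamb3, known from the laminin of epithelia such as skin, was a minor chain at 1.81 and 2.11 in adult and 0.54 in E12.5, and also rose (1.42, SE 0.19, adjusted p = 0.0165).

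Within a library the FPKM ratio of Lamb2 to Lamb1 does not depend on how libraries are scaled against each other. It was 2.74 (95% counting interval 2.56 to 2.93) and 2.56 (2.39 to 2.74) in adult and 0.202 (0.191 to 0.214) in E12.5. The second library from this stage, labelled Gata4 KO, gave 0.271 (0.257 to 0.286). Banding and sham lay on the adult side, at 2.12 (2.00 to 2.26) and 3.42 (3.18 to 3.67). The pairs of chains for which such ratios are given were chosen after their values were seen, so these ratios are descriptions.

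Of the laminin α chains, Lama2, the main α chain of striated muscle, stood at 3.98 and 4.07 in adult and 2.11 in E12.5, and rose by 1.91 (SE 0.11, adjusted p = 0.00538). Lama4, the laminin α4 chain of endothelium and embryonic muscle, stood at 4.24 and 4.46 in adult and 5.72 in E12.5, and fell by 1.38 (SE 0.14, adjusted p = 0.0105). Lama4 was still the higher of the pair in adult, where the ratio of Lama2 to Lama4 was 0.829 and 0.756, against 0.0642 in E12.5, and it was 0.693 in banding, 0.775 in sham and 0.0437 in the library labelled Gata4 KO. The summed FPKM of the 8 endothelial markers was 310 and 308 in adult and 298 in E12.5 on the deposited scale, with single markers on either side, such as Pecam1 at 5.82 and 5.89 against 4.79 and Eng at 4.98 and 4.93 against 5.77. Their part in the Lama4 difference was not tested. Lama5, a broadly expressed α chain of vessels and epithelia, stood at 2.26 and 2.53 in adult and 3.0 in E12.5 and did not pass (difference -0.61, SE 0.19, adjusted p = 0.0767).

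Lama1, the α chain of the first embryonic basement membranes, had 0 reads in either adult library and 155 in E12.5, where its level was 0.83. The adult FPKM was at least 31.0-fold and 30.3-fold lower than in E12.5, taking a floor of 3 reads in each adult library. Banding and sham also had 0 reads, and the library labelled Gata4 KO had 167. The gene stood under 1 FPKM throughout and was not tested. The 6 epicardial markers summed to 8.97 and 6.57 FPKM in adult and 116 in E12.5, and their part in this difference was not tested.

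Lamc1 stood at 4.68 and 5.0 in adult and 5.66 in E12.5, and fell by 0.82 (SE 0.18, adjusted p = 0.0425) as deposited but did not pass under any of the 3 other scalings, where its difference was -0.26 to -0.44.

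The laminin-binding integrins Itga7, Itga6 and Itga3 did not move together. Itga7, the α7 chain of the laminin receptor of differentiated muscle, stood at 4.45 and 4.54 in adult and 0.47 in E12.5, from 1060 and 1110 reads against 33. It had the largest difference of any member tested, a rise of 4.02 (SE 0.11, adjusted p = 0.00398). Itga6, the α6 chain of endothelial and epithelial laminin receptors, stood at 4.20 and 4.47 in adult and 4.78 in E12.5 and did not pass (-0.45, SE 0.17, adjusted p = 0.11). Itga3, a laminin receptor chain of epithelia, stood at 1.64 and 1.34 in adult and 2.97 in E12.5, and fell by 1.47 (SE 0.20, adjusted p = 0.017). Itga7 was 1.21 times (counting interval 1.10 to 1.32) and 1.05 times (0.968 to 1.15) the FPKM of Itga6 in adult, and 0.0147 times (0.0101 to 0.0207) in E12.5.

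Of the α chains of receptors for fibronectin and other RGD proteins, Itga5, Itgav and Itga2b fell and Itga8 did not pass the test. Itga5, which with β1 forms the main fibronectin receptor, stood at 3.01 and 2.97 in adult and 5.26 in E12.5, and fell by 2.27 (SE 0.09, adjusted p = 0.00417). Itgav, the αv chain of vitronectin and latent TGF-β receptors, stood at 2.23 and 2.30 in adult and 3.30 in E12.5, and fell by 1.03 (SE 0.12, adjusted p = 0.0133). Itga8, the α8 chain that binds nephronectin, stood at 1.51 in both adult libraries and 1.86 in E12.5 and did not pass (-0.35, SE 0.10, adjusted p = 0.0669). Itga2b, the αIIb chain of the platelet fibrinogen receptor, stood at 0.24 and 0.33 in adult and 1.84 in E12.5, and fell by 1.55 (SE 0.07, adjusted p = 0.00478). The 8 platelet and megakaryocyte markers summed to 4.33 and 6.82 FPKM in adult with 4 at 0 in each library, and to 29.8 FPKM in E12.5 with none at 0. Single markers differed, with Pf4 at 1.72 and 2.43 in adult against 3.53 in E12.5, and Gp1ba at 1.57 and 1.69 against 1.52. The part of these markers in the Itga2b difference was not tested.

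The collagen-binding chains differed from each other. Itga1, a collagen and laminin receptor chain of muscle and stroma, stood at 4.33 and 4.53 in adult and 3.75 in E12.5, and rose by 0.68 (SE 0.13, adjusted p = 0.0327). Itga2, the collagen receptor chain of platelets and epithelia, stood at 0.25 and 0.28 in adult and 1.10 in E12.5, and fell by 0.83 (SE 0.05, adjusted p = 0.00564), from 10 and 11 reads against 101. Itga9, whose ligands include tenascin C and osteopontin, stood at 3.74 and 3.65 in adult and 2.62 in E12.5, and rose by 1.08 (SE 0.11, adjusted p = 0.0105). Itga1 and Itga9 were thus, with Itga7, the integrin α chains that rose, and Itga1 lost its call when every gene with a value above 0 was tested.

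Of the 5 integrin β chains tested, Itgb6 rose, Itgb3 and Itgb8 fell, and Itgb1 fell on the deposited scale only. Itgb6, the partner of αv that activates latent TGF-β in epithelia, stood at 2.41 and 2.18 in adult and 0.12 in E12.5, from 267 and 213 reads against 9, and rose by 2.17 (SE 0.16, adjusted p = 0.00712). Itgb3, which pairs with αv and αIIb, stood at 0.48 and 0.46 in adult and 1.84 in E12.5, and fell by 1.37 (SE 0.06, adjusted p = 0.00467). Itgb8, another αv partner that activates TGF-β, stood at 0.33 and 0.21 in adult and 1.41 in E12.5, and fell by 1.14 (SE 0.08, adjusted p = 0.00696). The αv partners therefore went in opposite directions, and Itgb5, the β5 chain of a vitronectin receptor, did not pass, at 3.83 and 3.85 in adult and 4.10 in E12.5 (-0.27, SE 0.08, adjusted p = 0.0804). Itgb1 fell by 0.56 (SE 0.09, adjusted p = 0.0212) as deposited, but its difference was 3.6e-05, -0.09 and -0.18 under the 3 other scalings and passed in none.

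The scale matters for small differences between these ages. Over all genes, limma gave 2965 that rose and 6123 that fell as deposited, 4274 and 4223 after upper-quartile scaling, 4043 and 4529 after median-of-ratios scaling, and 3821 and 4806 after rescaling without the 50 highest genes. The median of all tested genes was -0.51 as deposited, and 0.00, -0.08 and -0.17 under these scalings in the same order. Under each of these scalings the same 7 members rose, and 8 of the 11 fell, the other 3 being Itgb1, Lamc1 and Itga2, of which Itga2 dropped below the 1 FPKM minimum. By size, meaning at least a 2-fold ratio of mean FPKM where the higher group reached 5 FPKM, 4 members were higher (Itga7, Itga9, Lama2 and Lamb2, beside 12.8% of all genes) and 5 lower (Itga3, Itga5, Itgav, Lama4 and Lamb1, beside 28.6%). Itgav was not lower by size under any of the 3 other scalings, and Lama4 only without the 50 highest genes. Between the 2 adult libraries no member passed that rule, beside 0.165% of genes higher and 0.184% lower in replicate 1. Of the marker sums, fibroblast and mesenchyme in E12.5 (122 FPKM) lay between the adult libraries (107 and 134). Other sums lay apart between the ages, at 314 and 329 FPKM in adult and 534 in E12.5 for smooth muscle and pericyte, 44100 and 44000 against 35100 for cardiomyocyte, and 0.521 and 1.31 against 21300 for erythroid markers. Single markers within a sum differed in direction. Dcn stood at 6.05 and 6.35 in adult against 4.1 in E12.5, whereas Col1a1 stood at 2.95 and 3.24 against 5.05 and Col1a2 at 3.06 and 3.43 against 5.0. Of the smooth muscle and pericyte markers, Acta2 stood at 7.03 in both adult libraries against 8.56, and Rgs5 at 6.52 and 6.56 against 0.34. Of the cardiomyocyte markers, Myh6 stood at 13.27 and 13.21 in adult against 7.72, and Tnnt2 at 13.60 and 13.69 against 11.96. Myl2 went the other way, at 14.18 and 14.16 in adult against 14.60. The part of any of these markers in these results was not tested.

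**Figure D2:**
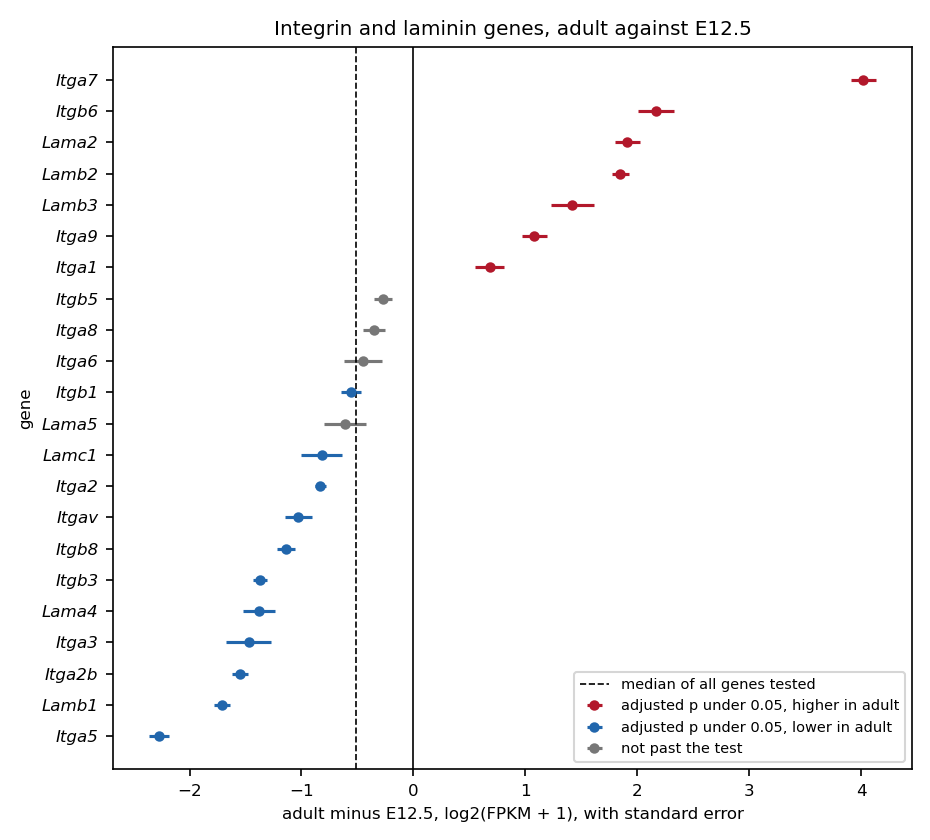
Adult minus E12.5 difference in log2(FPKM + 1) for 22 of the 23 members tested by limma, each point with its standard error. The dashed line marks the median of all genes tested at -0.51; Itga7 lies farthest above it at 4.02, and Itga5 farthest below at -2.27.

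Shares within each class of chain describe the same data without a scale between libraries. Among the integrin α chains, Itga7 held 24.0% and 23.7% of the summed FPKM in adult and 0.368% in E12.5. Itga5 held 8.13% and 7.26% in adult and 35.2% in E12.5. The leading α chain was thus Itga7 in both adult libraries, ahead of Itga1 at 22.0% and 23.5%, and Itga5 in E12.5, ahead of Itga6 at 25.1%. Among the laminin α chains, Lama2 held 39.8% and 37.5% in adult and 5.28% in E12.5, while Lama4 held 47.9% and 49.5% in adult and 82.2% in E12.5. Among the laminin β chains, Lamb2 held 70.4% and 68.1% in adult and 16.7% in E12.5. The summed FPKM of the laminin β chains was 63.8 and 62.4 in adult and 68.3 in E12.5, so the exchange of chains stood beside near-equal totals on the deposited scale.

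**Figure D3:**
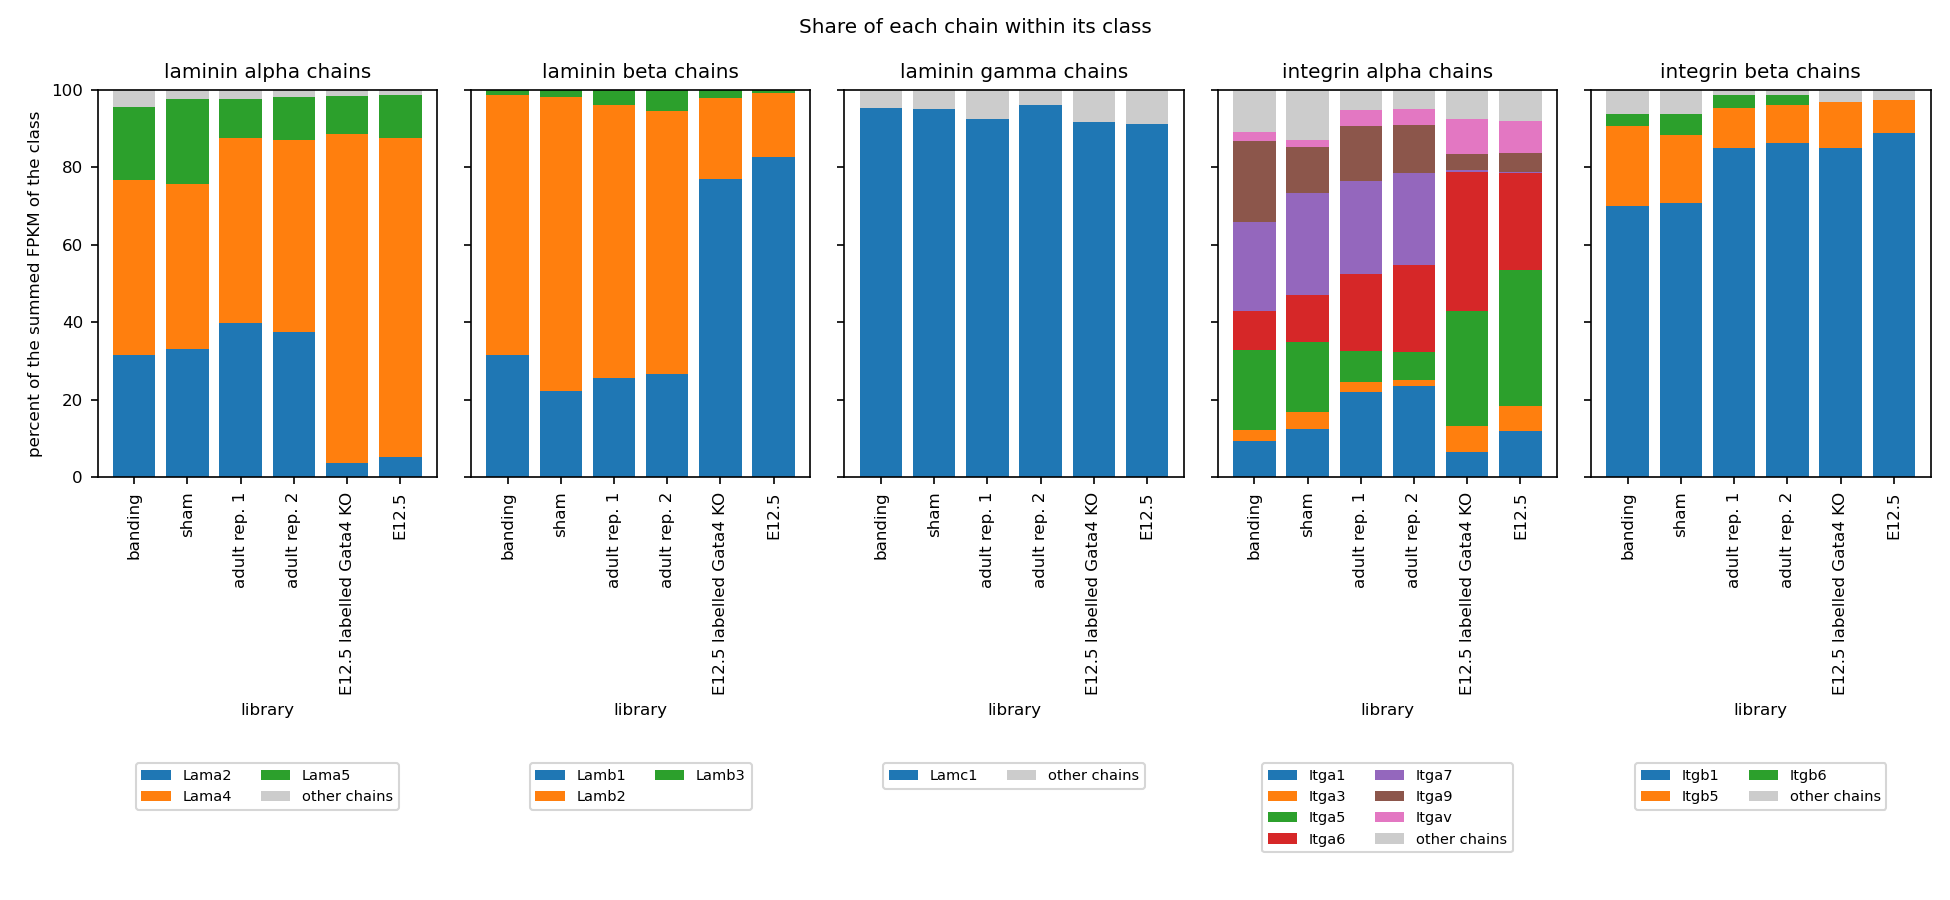
Share, in percent of summed FPKM, of each chain within its class in each library (from banding and sham through adult to the library labelled Gata4 KO and E12.5), with the remaining chains drawn together in grey. Lamb2 fills 67.1% to 75.9% of the laminin β bar in banding, sham and adult, against 20.9% in the library labelled Gata4 KO and 16.7% in E12.5.

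Other genes of the same adhesion system were counted in lists. Of 29 genes of basement membrane and integrin ligands, 25 were measured, and 4 rose and 18 fell, with a median of -1.14. Over all genes tested, 23.4% rose and 48.4% fell, with a median of -0.51. Fibronectin, Fn1, the ligand of Itga5, stood at 3.38 and 3.60 in adult and 7.54 in E12.5, and fell by 4.06 (SE 0.14, adjusted p = 0.00398). The basement membrane collagen Col18a1 fell by 3.85 (SE 0.22, adjusted p = 0.00561) and the laminin-binding nidogen Nid2 fell by 3.25 (SE 0.24, adjusted p = 0.0072). Vitronectin, Vtn, a ligand of the αv integrins, rose by 3.04 (SE 0.27, adjusted p = 0.00919). Col15a1, the laminin receptor dystroglycan (Dag1) and the netrin Ntn4 also rose. The rise of Dag1 was small, at 6.38 and 6.35 in adult against 6.05 in E12.5. Under the 3 other scalings this list gave 5 to 7 that rose and 15 that fell. Over all genes these scalings gave 3821 to 4274 that rose and 4223 to 4806 that fell, of 12546 to 12580 tested.

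Of 32 genes of the machinery that couples integrins to actin and signalling, 30 were measured, and 8 rose and 15 fell, with a median of -0.56. These lay close to all genes tested, of which 23.4% rose and 48.4% fell, with a median of -0.51. Lims2, an adaptor of integrin-linked kinase, rose by 3.39 (SE 0.21, adjusted p = 0.00602), and Itgb1bp2, which encodes the muscle β1-binding protein melusin, stood at 6.91 and 7.05 in adult and 3.74 in E12.5 and rose by 3.24 (SE 0.10, adjusted p = 0.00398). The focal adhesion adaptor Tgfb1i1 fell by 3.14 (SE 0.10) and the tetraspanin Cd81 fell by 3.09 (SE 0.08), each with an adjusted p = 0.00398. Paralogs, picked out after their values were seen, differed in direction here, with talin 2 (Tln2) and Lims2 among those that rose and talin 1 (Tln1) and Lims1 among those that fell. The balance of this list depended on scaling, at 11 that rose and 9 that fell, 10 and 10, and 8 and 10 under the others. The balance over all genes also depended on it, at 4274 and 4223, 4043 and 4529, and 3821 and 4806 in the same order.

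The library labelled Gata4 KO was set against E12.5, each with 1 library and so with no replicate check. Members stood higher in the labelled library more often than lower, by small amounts. Of the 22 members with at least 1 FPKM, 18 were higher and 4 lower, with a median of 0.37, whereas 5592 of all 12062 genes were higher and 6470 lower, with a median of -0.02. By size 1 member was higher, beside 1.26% of all genes, and 0 were lower, beside 0.688%. The 95% counting interval of the FPKM ratio lay above 1 for 18 members, beside 24.0% of all genes, and below 1 for 2, beside 28.0%; these intervals are narrow for well-counted genes and do not hold the spread between hearts.

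The member past the size rule was Itga6, the laminin receptor chain of endothelium and epithelia. It stood at 5.88 in the library labelled Gata4 KO and 4.78 in E12.5, from 4344 and 2352 reads, an FPKM ratio of 2.18 (counting interval 2.08 to 2.30), and it passed under each of the 3 other scalings. It held 35.8% of the summed FPKM of the integrin α chains in the labelled library and 25.1% in E12.5, which made it the leading α chain there in place of Itga5. Of its usual partners, Itgb1 stood at 7.48 against 7.40, a ratio of 1.06 (1.03 to 1.08), and Itgb4 stayed under 1 FPKM in both.

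Among the receptor chains for RGD ligands the values varied by chain. Itgav stood at 4.0 in the labelled library and 3.30 in E12.5, a ratio of 1.70 (1.58 to 1.82), and its partners Itgb5 and Itgb8 had ratios of 1.53 (1.41 to 1.65) and 1.86 (1.45 to 2.39). Itga5 stood at 5.63 against 5.26, a ratio of 1.30 (1.24 to 1.36). Itgb3, another αv partner, did not share this, at 1.78 against 1.84 (ratio 0.939, 0.792 to 1.11). Itga4, the receptor chain for fibronectin and Vcam1, had a ratio of 2.13 (1.67 to 2.73) at low level, from 191 reads against 106. Of 25 measured genes of the ligand list, Vcam1 itself was the 1 lower by size, beside 0.688% of all genes. It stood at 3.68 in the labelled library and 4.68 in E12.5 (ratio 0.481, 0.440 to 0.525). That call was lost after rescaling without the 50 highest genes. The matrix protein Thbs1 was the 1 higher, at 4.39 against 3.43, beside 1.26% of all genes. None of the 30 measured genes of the adhesion machinery passed by size, and 23 of them were higher, beside 5592 of all 12062 genes.

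Among the laminins, Lamb2 stood at 4.22 in the labelled library and 3.63 in E12.5, a ratio of 1.55 (1.44 to 1.66), and Lamb1 at 6.05 against 5.84, a ratio of 1.16 (1.12 to 1.20). Lama4 had a ratio of 1.30 (1.25 to 1.34) and Lamc1 of 1.33 (1.29 to 1.37). Lama4, Lamb1 and Lamc1, the leading chain of each laminin class in E12.5, were thus each higher, by less than 1.5 times. Lamb3 had the widest ratio, 3.97 (2.76 to 5.84), but stood at 1.49 against 0.54 from 131 and 39 reads, under the 5 FPKM minimum. The 2 members with an interval below 1 were the muscle chain Lama2, at 1.98 against 2.11 (ratio 0.884, 0.786 to 0.993), and Itga1, at 3.54 against 3.75 (ratio 0.857, 0.793 to 0.925).

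Of the remaining chains, Itga3 stood at 3.53 in the labelled library and 2.97 in E12.5, Itga8 at 2.43 against 1.86 and Itga9 at 2.95 against 2.62, with ratios of 1.55 (1.41 to 1.72), 1.67 (1.45 to 1.94) and 1.31 (1.19 to 1.45). Lama5 stood at 3.13 against 3.0 and the platelet chain Itga2b at 2.13 against 1.84, with ratios of 1.11 (1.03 to 1.19) and 1.3 (1.06 to 1.6). Itga2 was the other chain with an interval that included 1, at 0.88 against 1.10 (ratio 0.738, 0.530 to 1.02). Itga7 and Itgb6 stood under 1 FPKM in both libraries, far below their adult levels. Itga7 was at 0.73 against 0.47, from 47 and 33 reads (ratio 1.68, 1.06 to 2.71). Itgb6 was at 0.10 against 0.12, from 6 and 9 reads (ratio 0.788, 0.231 to 2.48).

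Marker sums of several cell types also differed between these libraries. Summed FPKM in the labelled library and E12.5 was 432 against 298 for 8 endothelial markers, 252 against 122 for 7 fibroblast and mesenchyme markers, 1120 against 534 for 7 smooth muscle and pericyte markers and 168 against 116 for 6 epicardial markers. It was lower for the 8 cardiomyocyte markers, at 26800 against 35100, and higher for the 6 erythroid markers, at 64800 against 21300. Single cardiomyocyte markers differed, with Myl2 at 14.01 in the labelled library against 14.60 and Tnnt2 at 11.28 against 11.96. Myh6 was not lower, at 7.76 against 7.72. None of the markers of these 6 lists was at 0 in either library. The 10 leukocyte markers summed to 68.2 against 43.8, and the 8 platelet and megakaryocyte markers, at 23.1 against 29.8, went the other way from the platelet chain Itga2b. Their part in the higher integrin and laminin levels was not tested.

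Banding was set against sham to describe the loaded heart, again with 1 library each and no replicate check. Here 1 member passed by size, Itga9, and the laminin β chains differed in opposite directions, with more Lamb1 and less Lamb2 in banding. Of 22 members with at least 1 FPKM, 14 were higher and 8 lower, with a median of 0.05, beside 0.03 over all 11011 genes. By size 1 was higher, beside 1.48% of all genes, and 0 were lower, beside 0.754%. The counting interval lay above 1 for 10 members, beside 22.7%, and below 1 for 5, beside 16.2%.

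Itga9, the receptor chain for tenascin C and osteopontin, reached 3.65 in banding, against 2.71 in sham, from 1133 and 468 reads, an FPKM ratio of 2.09 (1.87 to 2.33). It no longer passed after rescaling without the 50 highest genes, where the difference was 0.81. Sham lay below both adult libraries for this gene (3.74 and 3.65), and banding lay close to them on the deposited scale. Itga9 held 20.8% of the summed FPKM of the integrin α chains in banding, 11.8% in sham and 14.2% and 12.3% in adult, a measure that does not depend on scaling. By share, then, banding was the highest of the 6 libraries, and sham lay just below adult.

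Several further receptor chains were higher in banding by less than the size rule. Itga5 stood at 3.64 against 3.24 in sham, a ratio of 1.35 (1.20 to 1.53). Itgb1 stood at 5.58 against 5.30, a ratio of 1.22 (1.15 to 1.29), and Itgb5 at 3.90 against 3.41, a ratio of 1.44 (1.27 to 1.64). These chains stayed higher in banding under each of the 3 other scalings. The muscle laminin receptor chain Itga7 stood at 3.79 against 3.74, with an interval that included 1 (1.04, 0.928 to 1.16), and so did Itga6 at 2.73 against 2.72 (1.00, 0.852 to 1.18). Itgb6 was lower, at 1.60 against 1.95 (0.710, 0.564 to 0.893).

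For the laminins, Lamb1 reached 4.38 in banding, against 3.96 in sham, a ratio of 1.36 (1.26 to 1.48), while Lamb2 stood at 5.43 against 5.66, a ratio of 0.847 (0.807 to 0.889). Both directions held under each of the other scalings. Lamb2 remained the more abundant chain in banding, with Lamb2 over Lamb1 at 2.12 against 3.42 in sham, below the 2.74 and 2.56 of adult, which sham exceeded. Lama3, a chain of epithelial laminin, was higher at 1.09 against 0.67 (ratio 1.91, 1.44 to 2.55), below the level the size rule needs. The main laminin α chains had intervals that included 1, Lama2 at 0.934 (0.856 to 1.02) and Lama4 at 1.04 (0.95 to 1.15), and Lama5 was lower at 0.839 (0.758 to 0.929).

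The remaining chains lay at low levels or close together in banding and sham. Itgav stood at 1.22 in banding and 0.94 in sham and Itgb3 at 1.14 against 0.86, with ratios of 1.45 (1.09 to 1.94) and 1.48 (1.06 to 2.09). Lamc1 stood at 4.03 against 3.84 (1.15, 1.07 to 1.24), a difference of 0.05 after rescaling without the 50 highest genes. Itga3 was lower at 1.35 against 1.65 (0.724, 0.553 to 0.947) and Lamb3 at 0.86 against 1.18 (0.640, 0.427 to 0.952). Itga1, at 2.64 against 2.76, and the platelet chain Itga2b, at 1.03 against 1.28, had intervals that included 1. Itga2, Itga4, Itga8 and Itgb8 stood under 1 FPKM in both libraries, at 0.20, 0.72, 0.49 and 0.38 in banding against 0.19, 0.73, 0.69 and 0.34 in sham.

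The leukocyte chain Itgam, an α chain of macrophages and neutrophils, stood at 1.46 in banding and 1.17 in sham, from 115 and 71 reads (ratio 1.4, 1.03 to 1.91). Its partner Itgb2 stood at 1.05 against 1.01, from 43 and 35 reads, with an interval that included 1 (1.06, 0.662 to 1.71). The 10 leukocyte markers summed to 50.1 FPKM in banding and 32.3 in sham, and the 7 fibroblast and mesenchyme markers to 683 against 258, with none at 0 in either. The endothelial markers summed to 215 against 221 and the cardiomyocyte markers to 27000 against 24700. The part of any of these in the differences above was not tested. Among 27 measured ligands, the basement membrane collagen Col15a1 was the 1 higher by size and 0 were lower. It stood at 4.90 in banding and 3.58 in sham (ratio 2.63, 2.41 to 2.87). Of 30 measured genes of the adhesion machinery, 0 were higher and 1 was lower, Fblim1, a filamin-binding adaptor. Fblim1 stood at 3.26 against 4.94 (ratio 0.291, 0.258 to 0.327). Over all genes, 1.48% were higher by size and 0.754% lower.

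**Figure D4:**
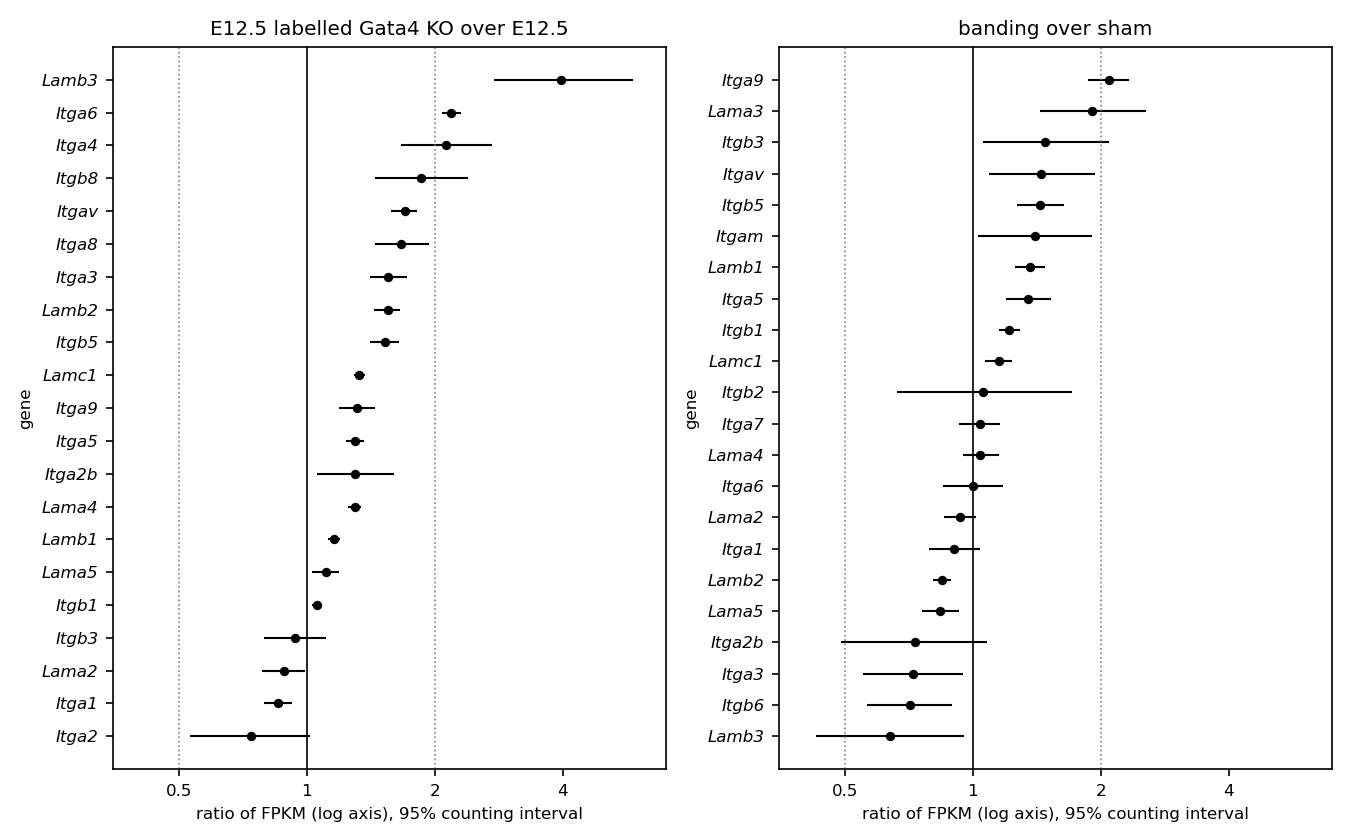
FPKM ratio with 95% counting interval (log axis) of members with at least 1 FPKM, for the library labelled Gata4 KO over E12.5 and for banding over sham. Dotted lines mark 0.5 and 2; Itga6 lies at 2.18 in the first and Itga9 at 2.09 in the second.

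Sham was set beside adult as a check on how far hearts without banding differ. As deposited, 7 of 22 members were higher and 15 lower in sham, with a median of -0.74 beside -0.44 over all genes. By size 0 were higher, beside 3.74% of all genes, and 5 were lower, beside 25.2%, namely Itga1, Itga6, Itga9, Itgb1 and Lamc1. Of these, Itga1 and Itga6 stayed lower by size under each of the 3 other scalings. Itga1 had a level of 2.76 in sham, against 4.33 and 4.53 in adult, and Itga6 one of 2.72, against 4.20 and 4.47. Itgb1 stood at 5.30 against 6.78 and 6.89 and passed otherwise under median-of-ratios scaling only, while Itga9 and Lamc1 passed only as deposited, Lamc1 not without adult replicate 2.

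Of the list of basement membrane and integrin ligands, 1 gene was higher by size in sham as deposited (Agrn, the basement membrane proteoglycan agrin). Another 3 were lower (Dag1, Fn1 and the netrin Ntn1). Over all genes, 3.74% were higher and 25.2% lower. Under the 3 other scalings 2 to 4 genes of the list were higher and 1 or 2 lower. Dag1, the laminin receptor dystroglycan, stood at 2.96 against 6.38 and 6.35 in adult, an FPKM ratio of 0.0832 (counting interval 0.0747 to 0.0924). Of the adhesion machinery 1 gene was higher (Itgb1bp3), beside 3.74% of all genes, and 9 of the 30 measured were lower, beside 25.2%. Among the lower was the adaptor Rsu1 at 2.86 against 4.89 and 5.04. Under the 3 other scalings 1 to 5 were higher and 3 lower.

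Shares within each class were also lower in sham for Itga1 and Itga6, though not for these alone. Itga1 held 12.3% of the summed integrin α FPKM in sham, against 22.0% and 23.5% in adult, and Itga6 12.0% against 19.9% and 22.5%. The shares of Itgav, at 1.95% against 4.26% and 4.18%, and Itga8, at 1.31% against 2.13% and 1.96%, were lower too. Itgav had an FPKM ratio of 0.24 (counting interval 0.187 to 0.303), at levels below the 5 FPKM minimum of the size rule. Itga5 held 18.1% in sham, against 8.13% and 7.26% in adult. Itga7, at 26.5% in sham against 24.0% and 23.7%, and Lama2, at 33.0% against 39.8% and 37.5% of laminin α, lay closer together. The endothelial markers summed to 221 FPKM in sham, against 310 and 308 in adult, smooth muscle and pericyte markers to 115, against 314 and 329, and cardiomyocyte markers to 24700, against 44100 and 44000. Fibroblast and mesenchyme markers went the other way, at 258 in sham, against 107 and 134 in adult. The level of Rn45s, the precursor of ribosomal RNA, was 12.94 in sham, against 8.65 and 8.94 in adult. The part of any of these was not tested. Banding gave 12.96 for Rn45s, close to sham.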

How the data were processed

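Per the submitters' processing notes, the build was mm9 and the series used MACS 1.4, BWA 0.5.9, HTSeq 0.5.3, TopHat 1.4 and CASAVA 1.8.2; which of them produced the expression values is not given there. The authors deposited 1 value per gene symbol and library, with no coordinates. The deposited values were on a log2 scale, log2(FPKM + 1), read from the values themselves, and were used as deposited, so fold changes of low genes are understated. The pseudocount was thus 1 FPKM. Whole reads were recovered, within 0.0001 of a read, for 100% of the 98043 values above 0. Nothing says that counting used strand or separated near-identical copies.

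For the 2 adult libraries against E12.5, limma (version 3.58.1, R 4.3.3) was fitted with its trend option to the 12658 genes that reached 1 FPKM in any of these 3 libraries, and p-values were adjusted by Benjamini and Hochberg's method at 0.05. The fit had 1 residual and 1.535 prior degrees of freedom, so E12.5, with its single library, is taken to vary as adult does. The adult libraries differed by more than counting noise (chi-square of 7.66 per gene over 9571 genes). Comparisons of 1 library each, and sham with adult, have no p-value. Their FPKM ratios carry exact conditional binomial 95% intervals, with the reads of the 2 adult libraries summed for sham with adult. These intervals cover counting error and not the spread between hearts. The reads have no molecular identifiers, so counting error itself may be understated. The size rule took a 2-fold ratio of mean FPKM and 5 FPKM in the higher group. Alternatives were other scalings, pseudocounts, filters and fold limits, a fit with no trend, and leaving out each adult library.

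All members with at least 1 FPKM could be named, with up to 4 genes past the rule for each list. The members and lists were chosen with earlier results of these data known. Promoter windows are from RefSeq on GRCm38.p6 and are used for their letters only, since the files' build is mm9. The values of 1 member are not reported here, though it is in the counts. The 39 immunoprecipitation and input libraries were not analysed here.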

Additional observations from a re-analysis of the deposited data

How the results depend on the processing

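No paired analysis was possible because every group other than adult has 1 library. For the same reason limma could not be run without an adult library, which would leave no residual degrees of freedom. By limma, the counts of members that rose (5 to 7) and fell (8 to 12) in adult stayed within 1.5 times the reported 7 and 11 under every alternative run. The count lower by size in adult, 5 as reported, was 3 after upper-quartile scaling, 3 after median-of-ratios scaling and 10 with a minimum of 1 FPKM. The median adult minus E12.5 difference, -0.61, was -0.07 after upper-quartile scaling, -0.15 after median-of-ratios scaling, -0.23 without the 50 highest genes, and -0.75 to -0.51 without either adult library. In the library labelled Gata4 KO, 5 members were higher at 1.5-fold and 3 with a minimum of 1 FPKM, and the median was 0.46 without the 50 highest genes. In banding that last scaling left 0 members higher by size and turned the median to -0.06. For sham against adult, upper-quartile scaling gave 1 higher, 2 lower and a median of 0.0025, and median-of-ratios scaling gave 3 lower and -0.18. Without the 50 highest genes there were 2 higher, 2 lower and a median of 0.07. A limit of 1.5-fold gave 8 lower, and a minimum of 1 FPKM 2 higher and 9 lower. The median was -0.81 with a pseudocount of 0.1 FPKM, -0.77 with a minimum of 5 FPKM and -0.65 without either adult library. For the size rule, no share of all genes is given under any alternative limit or scaling. These counts therefore describe the members alone. Among single members in adult against E12.5, 130 of 150 values kept direction and side of the threshold, 11 no longer passed (Itga1, Itga3, Itgb1, Lamb3 and Lamc1 when every gene above 0 was tested, Itgb1 and Lamc1 under other scalings, and Lamc1 with a pseudocount of 0.1 FPKM), 2 newly passed (Itga8 with no trend and Lama5 with a minimum of 5 FPKM) and 7 changed sign. The last were Itga6 (0.09 and 0.01 after upper-quartile and median-of-ratios scaling), Itga8 (0.04) and Itgb1 (3.6e-05) after upper-quartile scaling, and Itgb5 (0.27, 0.18 and 0.09 under the 3 scalings). The cause of these changes was not tested. Depth limits the chains under 1 FPKM, such as Itgax with 0 to 4 reads per library.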

Other observations

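The files also list 6 genes whose symbols begin with Itg but name no integrin chain, Itgb1bp1, Itgb1bp2, Itgb1bp3, Itgb2l, Itgb3bp and Itgbl1, and these fell outside the selection by symbol. Itgbl1, which encodes a secreted protein with repeats like those of integrin β chains, stood at 4.37 in banding and 3.0 in sham, from 652 and 200 reads, an FPKM ratio of 2.81 (95% counting interval 2.40 to 3.31). Both libraries lay above adult, at 1.62 and 1.46, and adult lay above E12.5, at 0.40 (difference 1.14, SE 0.12, limma adjusted p = 0.011). The 7 fibroblast and mesenchyme markers summed to 683 FPKM in banding and 258 in sham, and their part in the Itgbl1 difference was not tested.

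Itgb1bp3, which encodes a nicotinamide riboside kinase of muscle that was first named for binding the β1 chain, stood at 4.82 in banding and 4.01 in sham, from 704 and 335 reads (ratio 1.81, 1.59 to 2.07). It stood at 3.0 and 2.93 in adult and 2.14 in E12.5 (difference 0.82, SE 0.12, limma adjusted p = 0.0186). Itgb1bp2, the melusin gene, went the other way in the loaded heart, at 7.09 in banding and 7.35 in sham (ratio 0.834, 0.789 to 0.882). With 1 library each, the differences between banding and sham have no replicate check, and these genes were picked out after their values were seen.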
